A study of Mus musculus with 6 samples.

Results

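The genes of central carbon metabolism were examined in mouse oocytes with and without NAT10. They are 54 genes, listed by symbol for their role in sugar and pyruvate breakdown, among the 55291 gene symbols of the table, and all 54 had a row. The rule uses no expression value, but the list was drawn up with earlier results of these data known. Of the 54, 52 passed the filter on low reads and were tested, among 18353 tested genes in all. Pdk4, a pyruvate dehydrogenase kinase, and Pck2, the mitochondrial phosphoenolpyruvate carboxykinase, did not pass, with 10 and 50 reads over all 6 libraries. In all, 8 of the 54 averaged under 1 CPM (counts-per-million, the reads of a gene scaled to an equal library total).

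Each of the 6 libraries held polyadenylated RNA of 10 fully grown oocytes, lysed together and amplified by Smart-seq2, a protocol that copies whole transcripts from their poly(A) tail. The 3 control libraries came from females labelled only as wild type (WT). The 3 others came from females in which the Gdf9-cre transgene, active in oocytes from early follicle growth, deletes Nat10 conditionally (Nat10 cKO). NAT10 is the enzyme that places N4-acetylcytidine on RNA, and the title of the study concerns translation in oocyte meiotic maturation. All females of both groups had been given PMSG, a gonadotropin that drives follicle growth, 32 to 48 h (in the design text) or 36 to 48 h (in the protocol) before collection. Synthetic ERCC spike-in RNA went into every pool (0.2 µl of a dilution by 1000). The labels do not say whether the pools came from separate females, so the p-values below measure only the spread between these pools, which may be partly technical. Because levels are shares of reads, a change in the RNA content of an oocyte and a change in how many oocytes gave RNA cannot be told apart.

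Glycolysis splits glucose into pyruvate in the cytosol, lactate dehydrogenase exchanges pyruvate with lactate, and the pyruvate dehydrogenase complex turns pyruvate into acetyl-CoA for the citric acid cycle in mitochondria. The pentose phosphate pathway branches off at glucose 6-phosphate and yields NADPH and ribose. The mouse oocyte is known to use glucose poorly and to depend on pyruvate, much of it delivered by the surrounding cumulus cells.

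The libraries held between 33520334 and 74098613 reads, with WT replicates 1 and 2 the shallowest at 33520334 and 34119952. Nat10 itself, the targeted gene (chr2:103721256-103761270, minus strand), had 42.1, 50.1 and 39.3 CPM in WT replicates 1 to 3 against 5.72, 5.97 and 6.32 CPM in the Nat10 cKO replicates, so the labels held in every library. The log2 change was -2.67 (SE 0.129, limma adjusted p = 4.26e-08). Oocyte markers were all above 1 CPM, and the summed level of the 15 found was 28069 to 28538 CPM in WT and 32091 to 37141 CPM in Nat10 cKO. The sum hides a split: at an adjusted p under 0.05 limma called 8 of the 15 higher and 4 lower. Among all tested genes these shares were 17.4% and 17.6%. Granulosa cell markers summed to 421 to 474 CPM in WT against 399 to 443 in Nat10 cKO. Most of that was Serpine2 (322 ± 20.04 CPM in WT, 298 ± 28.5 CPM in Nat10 cKO) and Cyp19a1 (52.1 ± 8.85 and 41.1 ± 0.386 CPM), while 10 of the 20 averaged under 1 CPM. Foxl2 and Wnt4, among those 10, had at most 0.187 CPM in any library. More abundant on the list were Nr5a2 (29.6 CPM in WT, 34.9 in Nat10 cKO), Gata4 (22.1 and 24.9) and Kitl (8.65 and 10.4), none of them called. Of the 18 granulosa markers tested, limma called 1 higher, Inha (2.00 CPM in WT, 5.51 in Nat10 cKO). It called 2 lower, Cyp19a1 and Inhba, so this sum also hides opposite changes. Theca, stroma and endothelium markers summed to 133 to 140 CPM in WT against 126 to 145 in Nat10 cKO, led by Pecam1 and Cnn1. Blood and immune markers summed to 51.2 to 55.9 CPM in WT against 41.2 to 44.8 in Nat10 cKO, led by C1qb and H2-Aa. Of the 4 tested, 0 were called higher and 1 lower, C1qb (43.9 CPM in WT, 32.1 in Nat10 cKO). What part such cells or RNA have in the values below was not tested.

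The transcripts of the pathway were led by 1 gene. Ldhb, the lactate dehydrogenase B subunit, held 47.1% ± 1.51 (SD, n = 3) of all reads of the 54 genes in WT and 48.0% ± 0.578 in Nat10 cKO. Per kilobase of merged exons (CPM per kb, used here to compare genes of unequal length), Ldhb averaged 2614 ± 126 CPM per kb in WT and 3157 ± 157 in Nat10 cKO. The next were G6pdx, which opens the pentose phosphate pathway, at 206 ± 11.2 CPM per kb in WT, and Me1, the cytosolic malic enzyme, at 159 ± 9.94. Dld, Cs, Sucla2 and Mdh1 followed between 50.1 and 78.8 CPM per kb in WT. The order below the top depends on the length used, since merged exons exceed the longest transcript unevenly. Their lengths are 1570 and 1304 bases for Ldhb, 3562 and 1606 for Mdh2, and 5001 and 2432 for Pkm. At the other end, both hexokinases listed, Hk2 and Hk1, had 0.313 ± 0.038 and 0.0213 ± 0.000928 CPM per kb in WT. Levels therefore spanned from 0.00680 CPM per kb for Pdk4 to 2886 for Ldhb, as means over the 6 libraries. Excluding Ldhb, the other 53 genes together held 4601 ± 116 CPM in WT against 5370 ± 353 in Nat10 cKO.

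**Figure D1:**
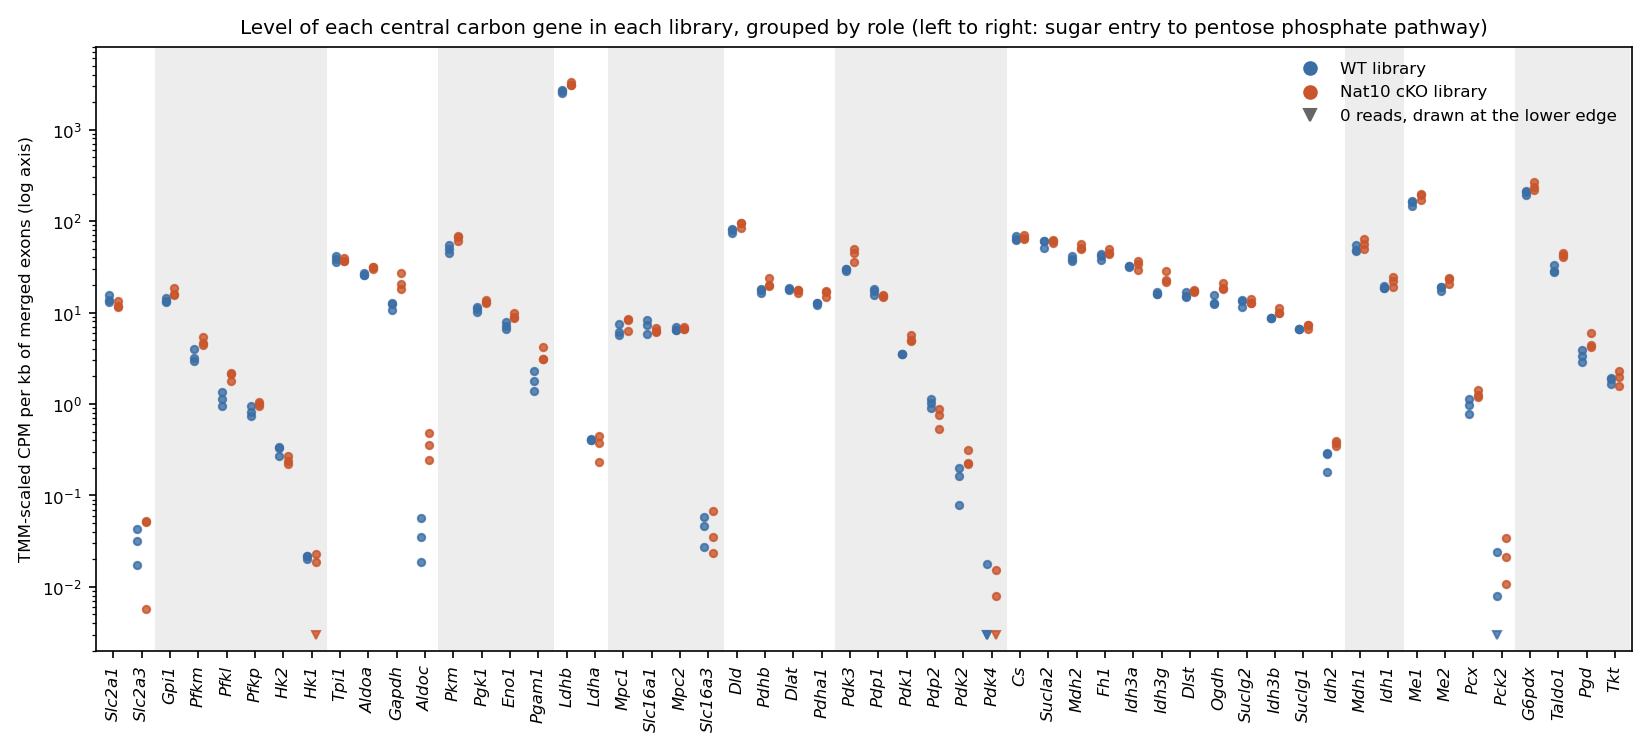
Level of each of the 54 genes in each library, in TMM-scaled CPM per kb of merged exons on a log axis, with genes grouped by role (shaded blocks) and libraries of WT in blue and Nat10 cKO in orange. Ldhb stands above all others near 2614 in WT, while the hexokinases Hk1 and Hk2, Ldha, Idh2, Aldoc, Slc2a3, Slc16a3, Pdk2, Pdk4 and Pck2 lie below 0.5 in every library, and library to library spread is small beside the differences between genes.

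Relative to the bulk of oocyte mRNA (TMM scaling, which sets the typical gene to no change), 19 of the 52 tested genes rose in Nat10 cKO oocytes, none fell, and 33 did not pass the test. Among all tested genes, limma called 17.4% higher and 17.6% lower. The edgeR test also called 0 members lower. At an unadjusted p under 0.05 limma had 1 lower and 26 higher. The share of all genes at that looser threshold is not given here, and 17.4% and 17.6% are not its background. The log2 changes of the 19 lay between 0.24 and 0.94, which is 1.18- to 1.92-fold on the scale of CPM + 1, so no member reached a doubling there. The median change over the 52 was 0.24, beside 0.00 over all tested genes, and 42 of the 52 were positive. In 32 members all 3 Nat10 cKO libraries lay above all 3 WT libraries, a pattern that held for 24.1% of all tested genes. The reverse held for 4 members, Hk2, Dlat, Pdp1 and Pdp2, and for 24.2% of all genes. Restricted to genes of at least 10 CPM, 17 of 41 members rose and none fell, where 20.3% of all such genes were called higher and 21.1% lower.

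**Figure D2:**
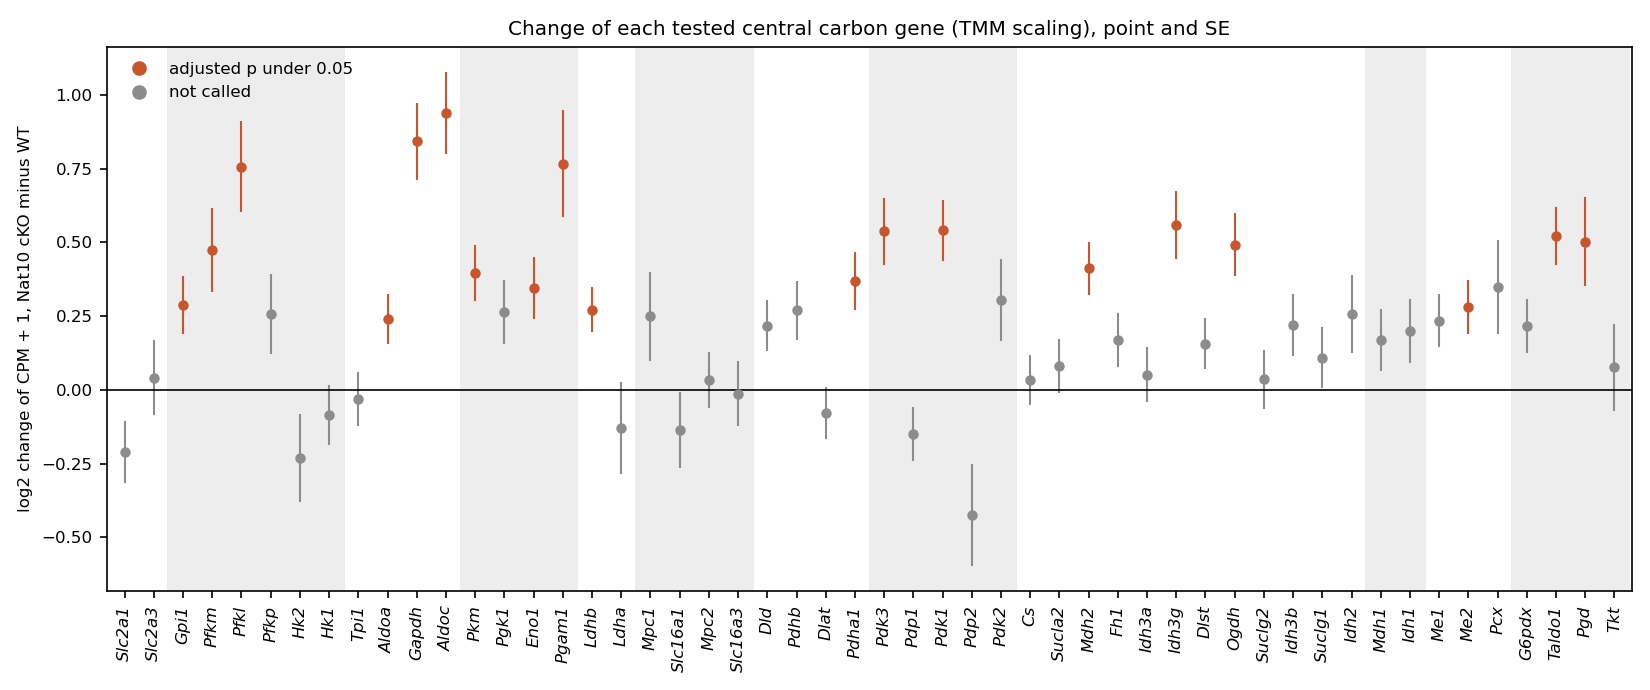
log2 change of CPM + 1, Nat10 cKO minus WT, with its SE, for the 52 tested genes in the same role order (3 libraries a group). Orange points are the 19 genes with a limma adjusted p under 0.05, all above 0, and the grey points below 0 include Slc2a1, Hk2, Pdp1 and Pdp2.

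These calls depended on the scale. On the values as the authors deposited them, which carry 1 factor per library, only Aldoc and Gapdh passed of the 52, and no member was lower. There 6.58% of all tested genes were called higher and 1.39% lower, and the median gene shifted by 0.24 on the log2 scale. With the deposited factors applied to each library's share of reads, again only Aldoc and Gapdh passed, beside 5.58% of all genes higher and 16.5% lower, and the median gene shifted by -0.15. All 19 genes kept a positive change on both scales, and each stayed above that scale's median gene. Both scales multiply the same reads by 1 factor per library, which moves all genes of a library together. The 19 were picked on these reads, so this is not independent support. Aldoc, moreover, passed the filter on low reads through its Nat10 cKO libraries, being near the floor in WT. The members' median was 0.58 on the deposited values and 0.02 on the per-read scale, and 43 and 40 of the 52 lay above the median of all genes. Leaving out 1 library at a time left between 11 and 22 members called higher, with the fewest without WT replicate 3. In each of those 6 fits, 11 of the 19 passed: Pfkl, Aldoc, Gapdh, Pgam1, Pkm, Pdk1, Pdk3, Idh3g, Ogdh, Mdh2 and Taldo1. The other 8 (Gpi1, Pfkm, Aldoa, Eno1, Ldhb, Pdha1, Me2 and Pgd) each lost the call without at least 1 library. Without WT replicate 3 all 8 lost it. The call was also lost without Nat10 cKO replicate 1 for Gpi1, Aldoa, Eno1, Ldhb, Pdha1 and Me2, without replicate 2 of that group for Gpi1, Aldoa, Eno1, Ldhb, Me2 and Pgd, and without its replicate 3 for Pfkm and Aldoa. Without WT replicate 1 it was lost for Gpi1, Pfkm, Aldoa, Eno1 and Me2, and without WT replicate 2 for Me2. Below, "rose" refers to TMM scaling, where limma called 17.4% of all tested genes higher. Counts within a role stand beside that share and, at so few genes each, describe the genes only.

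**Figure D3:**
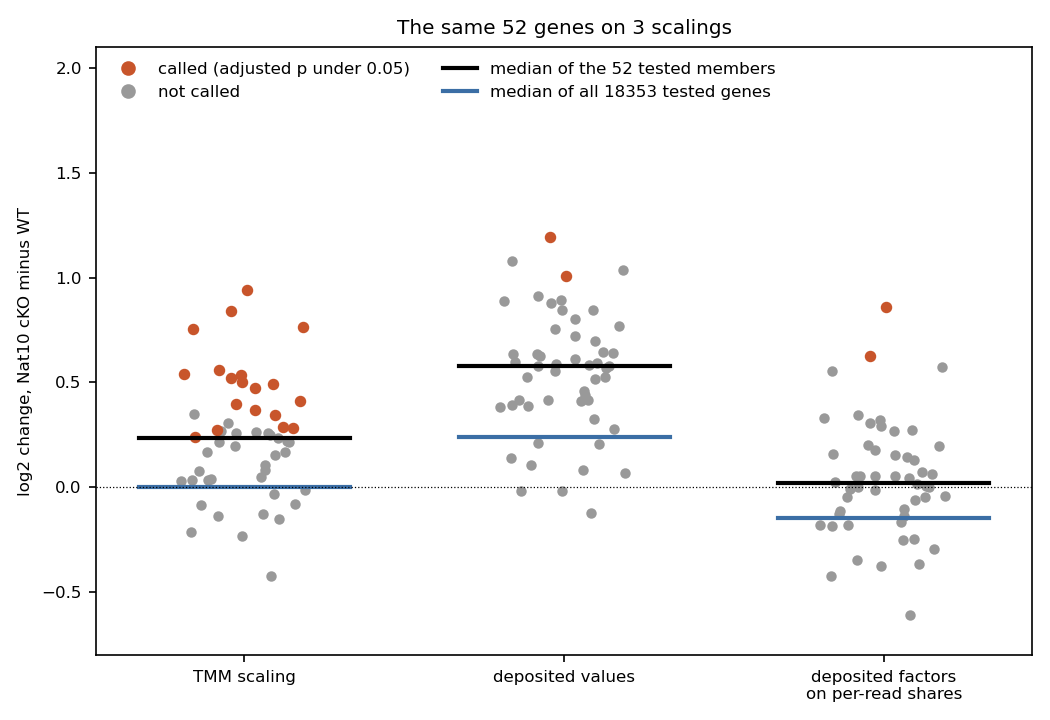
log2 change, Nat10 cKO minus WT, of the same 52 genes on 3 scalings, with genes called in orange, the members' median as a black bar and the median of all 18353 tested genes as a blue bar. The black bar lies above the blue one on each scaling (0.24 and 0.00, 0.58 and 0.24, 0.02 and -0.15), while the number called goes from 19 to 2 and 2. All 3 scalings use the same reads and differ by 1 factor per library, so they are not independent.

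Neither glucose carrier passed the test, nor did either hexokinase listed. Slc2a1, the general glucose transporter GLUT1, was the more abundant of the 2 carriers, with 45.8, 54 and 48.6 CPM in WT against 40.4, 40.9 and 46.4 in Nat10 cKO. These overlap, and the change was not called (log2 change -0.21, SE 0.106, limma adjusted p = 0.137). Slc2a3, the GLUT3 carrier, had 75 reads in all and held 0.325, 0.205 and 0.124% in the WT libraries and 0.447, 0.445 and 0.0432% in the Nat10 cKO libraries of the reads per kb of both. Hk2, the inducible hexokinase, had 1.61, 2.01 and 1.99 CPM in WT against 1.6, 1.3 and 1.41 in Nat10 cKO. The highest Nat10 cKO value lay just under the lowest WT value, and the change did not pass the test (log2 change -0.23, SE 0.149, limma adjusted p = 0.245). Hk1, the housekeeping hexokinase, had 50 reads in all, none of them in Nat10 cKO replicate 2.

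Adpgk, a glucokinase that uses ADP in place of ATP, came from the list of pathway neighbours described further on and was picked here after its level was seen. It held 12.1 ± 0.434 CPM per kb in WT and 9.81 ± 0.233 in Nat10 cKO, between 35.0 and 45.4 times Hk2 in every library. It made up 93.2% of the summed level per kb of the 6 hexose-phosphorylating genes. Adpgk fell by 0.30 on the log2 scale under TMM (SE 0.0853, limma adjusted p = 0.0141), but its change was 0.05 on the deposited values and -0.52 on the per-read scale.

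Of the genes from glucose 6-phosphate to the split of the sugar, 3 of the 4 below hexokinase rose. Gpi1, glucose 6-phosphate isomerase, had 87.2, 93.9 and 83.4 CPM in WT against 102, 121 and 101 in Nat10 cKO (log2 change 0.29, SE 0.0982, limma adjusted p = 0.0355). Phosphofructokinase, the committed and most regulated step, is made from 3 genes. Pfkl, the liver type (ENSMUSG00000020277.10, chr10:77986947-78010083, minus strand), had 7.6, 9.07 and 6.28 CPM in WT against 12.1, 14.4 and 14.1 in Nat10 cKO. The groups did not overlap (log2 change 0.76, SE 0.153, limma adjusted p = 0.00228). Pfkm, the muscle type, had 9.98, 13.2 and 10.7 CPM in WT against 14.7, 15.4 and 18.1 in Nat10 cKO (log2 change 0.48, SE 0.143, limma adjusted p = 0.0203). Pfkp, the platelet type, had 11.1, 12.6 and 9.84 against 12.8, 14.3 and 13.4 CPM and was not called (log2 change 0.26, SE 0.135, limma adjusted p = 0.157). Exons of Pfkm share 18 bases with Senp1 and those of Pfkp 748 bases with Pitrm1, both on the other strand and both with more reads. The labels and processing notes do not say if counting used strand.

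Within a library, an isozyme's share of its family does not depend on scaling, but its size depends on the gene lengths used. Pfkl made up 23, 21.7 and 19.3% in the WT libraries and 25.3, 27.6 and 24.8% in the Nat10 cKO libraries of phosphofructokinase reads per kb, and the groups did not overlap. Pfkp made up 16.7, 15 and 15% in the WT libraries and 13.3, 13.6 and 11.7% in the Nat10 cKO libraries, also without overlap, while the major form Pfkm held 63.1% ± 2.68 in WT and 61.2% ± 2.32 in Nat10 cKO. With 3 libraries against 3, an exact permutation test cannot go below p = 0.1 (two-sided), which both shares reached (adjusted p = 0.257 over the 18 shares compared). No share could therefore pass. Of the 18 shares, 7 did not overlap between the groups: those of Pfkl, Pfkp, Aldoc, Ldhb, Idh1, Mdh1 and Me2. Each had an exact permutation p of 0.1. Shares of 1 family are linked, and no such rate was computed for other gene families. Some differences were small, with mean shares of 99.98% in WT and 99.99% in Nat10 cKO for Ldhb, and 10.5% and 10.8% for Me2.

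**Figure D4:**
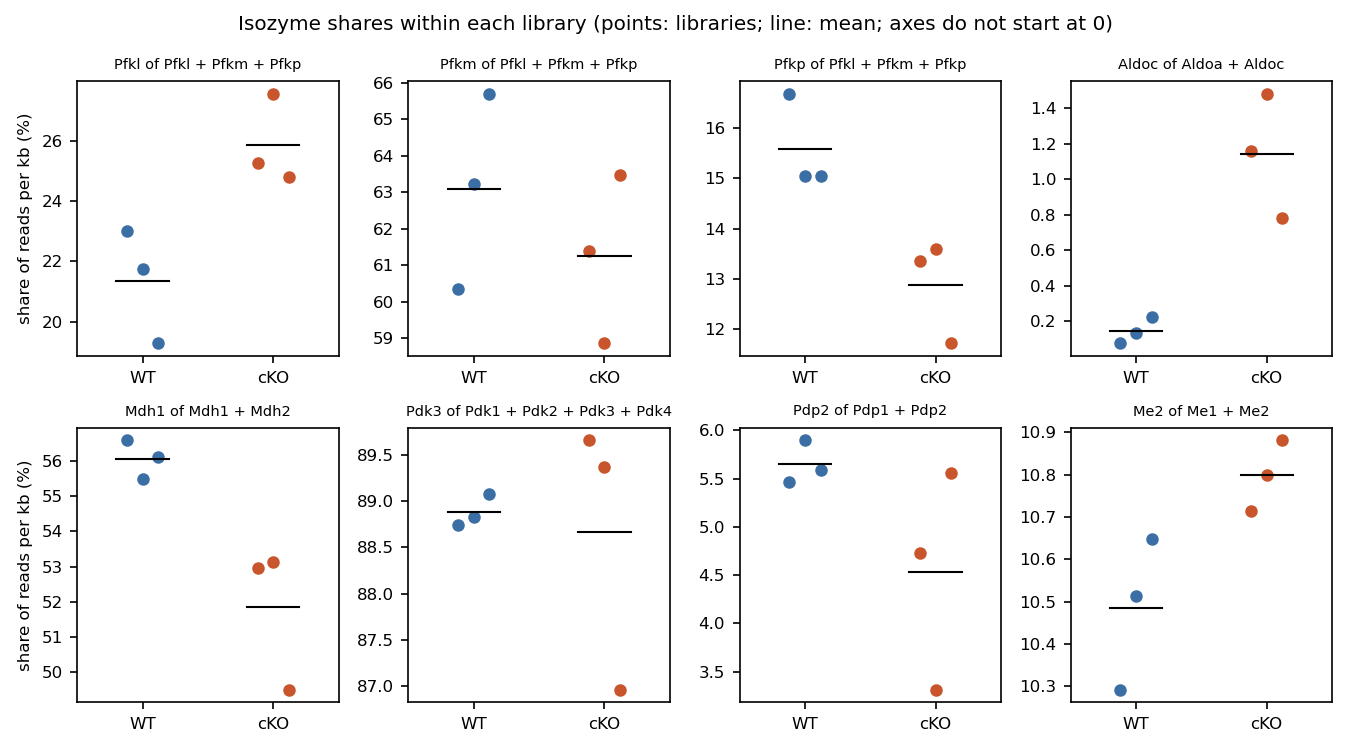
Share of a gene family's reads per kb held by 1 isozyme in each library, in percent, for 8 of the 18 shares (points are libraries, lines are group means of 3, and the axes do not start at 0). Pfkl, Aldoc and Me2 are higher and Pfkp and Mdh1 lower in every Nat10 cKO library than in every WT library, while the groups overlap for Pfkm, Pdk3 and Pdp2.

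Aldolase and the triose steps held the members with the largest changes. Aldoa, the main aldolase, had 96, 99.7 and 96.2 CPM in WT against 111, 118 and 116 in Nat10 cKO, a small rise (log2 change 0.24, SE 0.0845, limma adjusted p = 0.0412). Aldoc, the brain-type aldolase (ENSMUSG00000017390.15, chr11:78322968-78327781, plus strand), was nearly absent in WT at 0.0618, 0.115 and 0.186 CPM and had 1.15, 1.55 and 0.802 CPM in Nat10 cKO. These are 2, 4 and 12 reads against 86, 74 and 58 reads. Aldoc rose on each scale (log2 change 0.94, SE 0.14, limma adjusted p = 0.00034), and edgeR, with no pseudocount of 1 to damp it, gave a log2 change of 3.13. With so few WT reads, it passed the filter on low reads through its Nat10 cKO libraries, where it was high. Its call is thus not independent of that filter, and with a floor of 1 CPM on average it was not tested. It remained a minor form, with 0.0732, 0.131 and 0.22% in the WT libraries and 1.16, 1.48 and 0.779% in the Nat10 cKO libraries of aldolase reads per kb. Tpi1, triose phosphate isomerase, was the most abundant of the group per kb, with 114, 106 and 99.1 CPM in WT against 102, 109 and 101 in Nat10 cKO, and the groups overlapped (log2 change -0.03, SE 0.0906, limma adjusted p = 0.82).

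Gapdh, glyceraldehyde 3-phosphate dehydrogenase and a common reference gene for normalization, was not level between the genotypes. Gapdh (ENSMUSG00000057666.18, chr6:125161715-125166467, minus strand) had 44.4, 52.4 and 50.8 CPM in WT against 84.2, 111 and 75.2 in Nat10 cKO, without overlap (log2 change 0.84, SE 0.131, limma adjusted p = 0.000438). It also passed on the deposited values (log2 change 1.20, limma adjusted p = 0.0393) and on the per-read scale (log2 change 0.63, limma adjusted p = 0.0364). Gapdh has 169 near-identical copies in the annotation, of which 165 are pseudogenes and 167 have rows of their own. Their reads came to 26.7, 22.9 and 21.4% of the Gapdh reads in the WT libraries and 10.7, 9.48 and 12.7% in the Nat10 cKO libraries, and how shared reads were assigned is not stated. With the copies' reads added, Gapdh had 56.3, 64.5 and 61.6 CPM in WT against 93.2, 121 and 84.8 in Nat10 cKO, and it still passed (log2 change 0.69, limma adjusted p = 0.00106). Gm5177, a transcribed Gapdh pseudogene with a longer transcript of its own, lay close to Gapdh in WT. It was not among the copies above, so its 15852 reads, beside 23536 of Gapdh, were not added. Whether Gapdh passes with the reads of Gm5177 added was not tested. Its level was 49.7, 41.9 and 48.8 CPM in WT against 50.4, 49.6 and 48.6 in Nat10 cKO, and the groups overlapped.

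The 250 bases before the RefSeq start (GRCm38.p6) are shown for the members whose values stand out most, the dominant Ldhb, its near-silent paralog Ldha, and Aldoc and Gapdh, which passed on all 3 scales. Each reads 5′ to 3′ on the gene's strand, and capitals mark any match, on either strand, to any of 5 short motifs. The GC box was searched as GGGCGG. For the box bound by the trimeric factor NF-Y, the letters were CCAAT. For the classical core promoter box the letters were TATAAA. The core of the hypoxia response element was taken as ACGTG. The element bound by NOBOX, an oocyte transcription factor, was taken as TAATTG. No motif contains another.
Ldhb: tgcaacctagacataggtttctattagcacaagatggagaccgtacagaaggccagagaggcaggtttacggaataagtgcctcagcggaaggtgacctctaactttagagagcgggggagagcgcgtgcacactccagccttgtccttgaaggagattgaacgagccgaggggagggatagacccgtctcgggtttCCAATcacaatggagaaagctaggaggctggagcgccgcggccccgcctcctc
Ldha: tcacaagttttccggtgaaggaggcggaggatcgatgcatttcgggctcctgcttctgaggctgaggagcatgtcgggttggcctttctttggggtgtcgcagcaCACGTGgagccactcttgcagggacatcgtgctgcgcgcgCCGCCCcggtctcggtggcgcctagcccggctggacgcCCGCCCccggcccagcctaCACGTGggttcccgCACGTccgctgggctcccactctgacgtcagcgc
Aldoc: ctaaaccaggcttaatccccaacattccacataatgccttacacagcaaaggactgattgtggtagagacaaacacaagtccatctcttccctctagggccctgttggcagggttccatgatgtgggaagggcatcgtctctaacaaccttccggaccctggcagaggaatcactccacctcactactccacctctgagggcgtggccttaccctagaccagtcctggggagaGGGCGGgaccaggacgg
Gapdh: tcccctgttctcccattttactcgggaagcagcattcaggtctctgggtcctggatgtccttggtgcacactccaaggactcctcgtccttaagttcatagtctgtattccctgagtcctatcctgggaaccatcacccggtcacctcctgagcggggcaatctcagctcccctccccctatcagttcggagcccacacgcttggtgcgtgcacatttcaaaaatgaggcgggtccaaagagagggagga

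These windows lie at chr6:142507958-142508207 (minus strand), chr7:46845554-46845803 (plus), chr11:78322823-78323072 (plus) and chr6:125165774-125166023 (minus). The Ldhb window held 1 NF-Y box, the Ldha window 2 GC boxes and 5 hypoxia response cores counted on both strands (a palindrome counts on each), the Aldoc window 1 GC box, and the Gapdh window none of the 5 motifs. RefSeq gives Ldha and Aldoc a further start each, with none of the 5 motifs before it. Over the 73 starts of the 50 members with a RefSeq promoter, 57.5% held a GC box, 45.2% the NF-Y box, 35.6% the hypoxia response core, 6.85% the NOBOX element and 0% the core promoter box. Over all 32851 starts these shares were 32.7, 33.8, 16.6, 7.17 and 12.4%. Among the 34 starts of genes that rose, 41.2% held a GC box, 38.2% the NF-Y box, 41.2% the hypoxia response core, 8.82% the NOBOX element and 0% the core promoter box. A match describes letters only, and no binding was measured.

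In the later steps of glycolysis, which yield ATP, 3 of 4 genes rose and Pgk1 did not pass. Pgk1, phosphoglycerate kinase, had 25.8, 24.5 and 22.9 CPM in WT against 29.3, 30.8 and 28.4 in Nat10 cKO, without overlap but short of the threshold (log2 change 0.26, SE 0.109, limma adjusted p = 0.0753). Pgam1, phosphoglycerate mutase, was scarce, with 2.78, 4.59 and 3.54 CPM in WT against 6.12, 8.38 and 6.08 in Nat10 cKO (log2 change 0.77, SE 0.182, limma adjusted p = 0.00582). Both groups kept the order of abundance in which Pgam1 is lowest and Pkm highest. Eno1, enolase, had 38.6, 42 and 35.6 CPM in WT against 48.2, 53.4 and 46.8 in Nat10 cKO (log2 change 0.35, SE 0.105, limma adjusted p = 0.0214). Pkm, pyruvate kinase (ENSMUSG00000032294.17, chr9:59656368-59679375, plus strand), was by far the most abundant of the 4, with 247, 271 and 222 CPM in WT against 301, 331 and 340.2 in Nat10 cKO (log2 change 0.40, SE 0.0941, limma adjusted p = 0.00586). The groups did not overlap for any of these 4 genes. Bpgm, the bisphosphoglycerate mutase of the neighbour list, was more abundant than Pgam1 and was picked here after its level was seen. Bpgm averaged 564 ± 22.2 CPM per kb in WT and 583 ± 9.08 in Nat10 cKO. It was 99.5% of the summed level per kb of Pgam1, Pgam2 and Bpgm, which are named for different reactions. Whether Bpgm serves the step of Pgam1 in these oocytes was not tested. Its change was not called (log2 change 0.05, SE 0.0744, limma adjusted p = 0.645).

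Lactate dehydrogenase was almost wholly of the B type. Ldhb (ENSMUSG00000030246.11, chr6:142490249-142507957, minus strand), the subunit that prevails in tissues that burn lactate, had 4112, 4298 and 3903 CPM in WT against 4849.6, 5239.9 and 4782 in Nat10 cKO. It rose, with no overlap (log2 change 0.27, SE 0.0771, limma adjusted p = 0.015). Ldha (ENSMUSG00000063229.15, chr7:46841475-46855627, plus strand), the subunit that prevails where pyruvate is turned to lactate, had 1.36, 1.32 and 1.34 CPM in WT against 1.23, 0.777 and 1.47 in Nat10 cKO, 411 reads in all, and was not called (log2 change -0.13, SE 0.157, limma adjusted p = 0.552). Near-identical pseudogenes held a further 19.5% of the Ldha read number. Per kb, Ldhb exceeded Ldha between 6158- and 14211-fold in the 6 libraries. Ldhc, the testis-type gene of the neighbour list, is described with that list.

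Transport of pyruvate and lactate had no called member among 4. Slc16a1, the plasma membrane carrier MCT1, had 36.8, 25.9 and 31.9 CPM in WT against 27.2, 30.1 and 27.7 in Nat10 cKO (log2 change -0.14, SE 0.13, limma adjusted p = 0.442). Slc16a3, the carrier MCT4 of glycolytic cells, stayed at or under 0.36 CPM in every library. The mitochondrial pyruvate carrier is a pair of subunits, Mpc1 and Mpc2. Mpc1 had 12.7, 11.7 and 15.6 CPM in WT against 17.8, 17.1 and 13.2 in Nat10 cKO (log2 change 0.25, SE 0.151, limma adjusted p = 0.218), and its pseudogene Mpc1-ps and other copies held reads equal to 27.4% of its own. Mpc2 had 46.8, 46.8 and 50.5 against 48.1, 48.6 and 50.7 CPM (log2 change 0.03, SE 0.0951, limma adjusted p = 0.819). The groups overlapped for all 4 genes.

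Of the 4 subunits of the pyruvate dehydrogenase complex, 1 rose. Pdha1, the E1 alpha subunit that the kinases below phosphorylate, had 47.6, 47.3 and 45.7 CPM in WT against 64.8, 62.4 and 55.7 in Nat10 cKO (log2 change 0.37, SE 0.0978, limma adjusted p = 0.0105). Pdhb, E1 beta, had 69.9, 63.3 and 68.6 against 75.9, 91.1 and 77.6 CPM, just short of the threshold (log2 change 0.27, SE 0.10, limma adjusted p = 0.0506), and edgeR and DESeq2 called it higher. Dlat, the E2 core, had 89.1, 87 and 90.7 against 86.5, 79.7 and 86.3 CPM (log2 change -0.08, SE 0.0878, limma adjusted p = 0.512). For these 2 partners the direction of the libraries was opposite, Pdhb above and Dlat below WT throughout. Dld, the E3 subunit shared with other complexes, was the most abundant per kb with 302, 272 and 296 CPM in WT against 352, 353 and 309 in Nat10 cKO (log2 change 0.22, SE 0.088, limma adjusted p = 0.0701). Pdha1 and Dld were above every WT library in each Nat10 cKO library. Whether the subunits differ from one another in their change was not tested.

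Both abundant pyruvate dehydrogenase kinases, which switch the complex off, rose, and neither phosphatase, which switches it on, passed the test. Pdk3 (ENSMUSG00000035232.8, chrX:93764607-93832201, minus strand) had 72.5, 76.5 and 77.4 CPM in WT against 115, 127 and 91.4 in Nat10 cKO (log2 change 0.54, SE 0.114, limma adjusted p = 0.00309). Pdk1 (ENSMUSG00000006494.11, chr2:71873224-71903858, plus strand) had 27.3, 27.7 and 27.5 CPM in WT, nearly the same value each time, and 38.3, 44.1 and 39.1 CPM in Nat10 cKO (log2 change 0.54, SE 0.105, limma adjusted p = 0.00174). Neither kinase overlapped between the groups, and 88.9% ± 0.172 of kinase reads per kb were Pdk3 in WT against 88.7% ± 1.48 in Nat10 cKO. Pdk2 had 0.247, 0.632 and 0.513 CPM in WT against 0.695, 0.714 and 0.996 in Nat10 cKO (log2 change 0.30, SE 0.138, limma adjusted p = 0.103), and Pdk4 had at most 0.0622 CPM. Pdp1, the main phosphatase, had 70.6, 81.3 and 77.3 CPM in WT against 68.6, 70.4 and 66.9 in Nat10 cKO (log2 change -0.15, SE 0.093, limma adjusted p = 0.23). Pdp2 had 5.16, 6.43 and 5.78 CPM in WT against 4.3, 3.05 and 4.98 in Nat10 cKO (log2 change -0.42, SE 0.173, limma adjusted p = 0.0721), and it was called lower without Nat10 cKO replicate 3. All Nat10 cKO values of both phosphatases lay below all WT values.

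**Figure D5:**
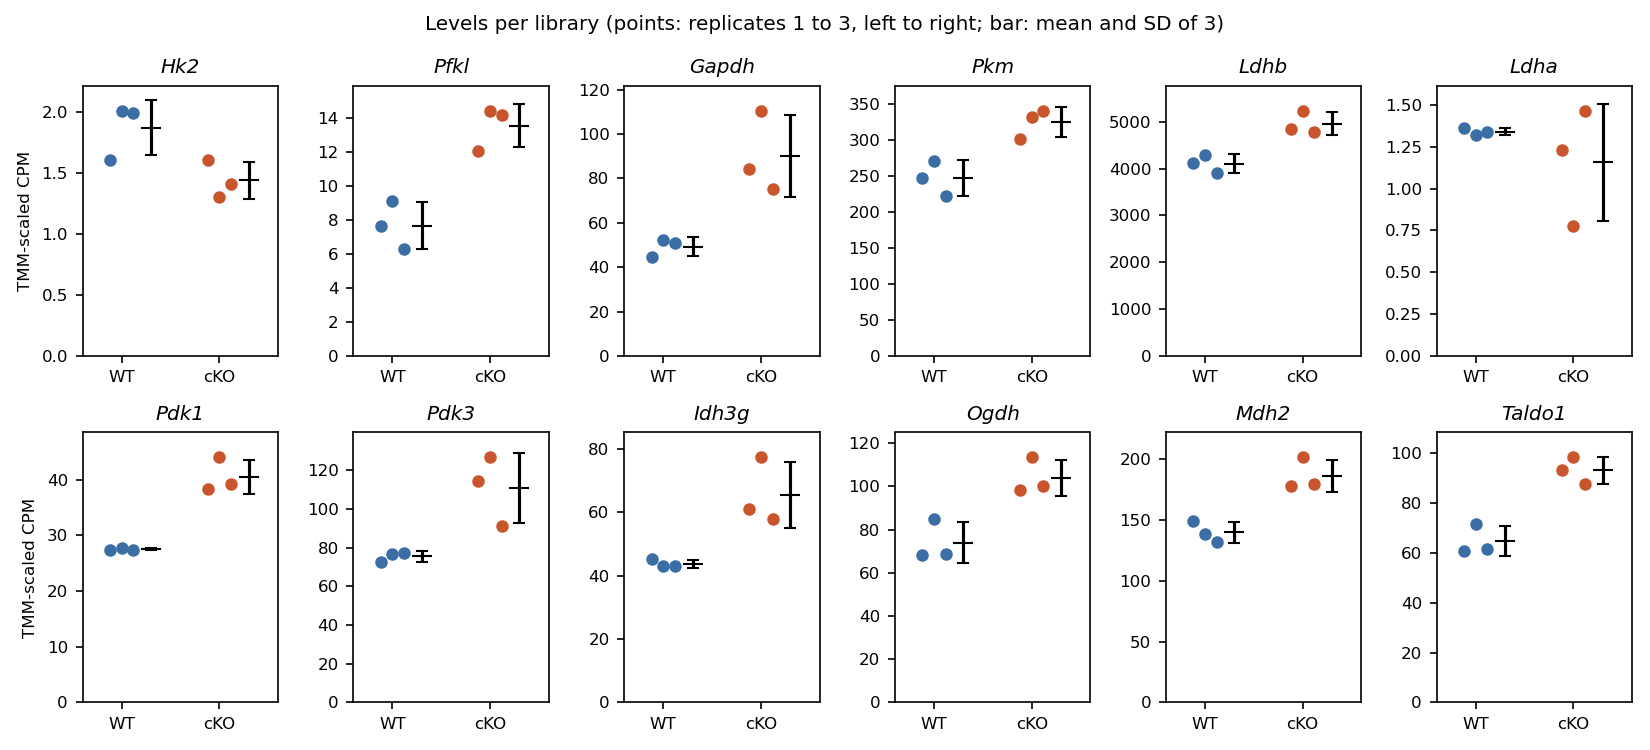
TMM-scaled CPM of 12 genes in each library (points, replicates 1 to 3 from left to right) with the mean and SD of 3, on linear axes that start at 0. The groups do not overlap for any of the 12 except Ldha, and Hk2 is the only one of the other 11 that is lower in Nat10 cKO.

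All 12 citric acid cycle genes among the members had a positive change, of which 3 passed, although on the per-read scale 7 of the 12 were negative. Of 10 further genes grouped with the cycle in the neighbour list, 8 were positive and 2 negative under TMM. Of those 10, 3 were called higher and 0 lower. Cs, citrate synthase, which admits acetyl-CoA, was the most abundant per kb, with 398, 355 and 366 CPM in WT against 375, 405 and 364 in Nat10 cKO, fully overlapping (log2 change 0.03, SE 0.0848, limma adjusted p = 0.79). The NAD-linked isocitrate dehydrogenase has 3 subunits. Its gamma subunit Idh3g (ENSMUSG00000002010.17, chrX:73778963-73786897, minus strand) had 45.2, 43 and 42.9 CPM in WT against 60.9, 77.4 and 58 in Nat10 cKO (log2 change 0.56, SE 0.115, limma adjusted p = 0.00252). The catalytic alpha subunit Idh3a, at 165, 158 and 162 against 172, 183 and 149.8 CPM, did not pass (log2 change 0.05, SE 0.0928, limma adjusted p = 0.699), nor did Idh3b, the beta subunit, at 30.2, 29.9 and 30.1 against 33.5, 38 and 34.1 CPM (log2 change 0.22, SE 0.104, limma adjusted p = 0.119). Idh2, the mitochondrial NADP-linked enzyme, was scarce with 267 reads in all, at 0.742, 0.746 and 0.466 against 0.909, 1.03 and 0.968 CPM (log2 change 0.26, SE 0.132, limma adjusted p = 0.146).

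Ogdh, the E1 subunit of the oxoglutarate dehydrogenase complex (ENSMUSG00000020456.17, chr11:6291633-6356642, plus strand), had 68.2, 84.8 and 68.9 CPM in WT against 98.2, 114 and 100.4 in Nat10 cKO (log2 change 0.49, SE 0.107, limma adjusted p = 0.00354). Its E2 partner Dlst had 139.7, 160.4 and 146 against 162, 166 and 169 CPM and was not called (log2 change 0.16, SE 0.0868, limma adjusted p = 0.179). The succinyl-CoA ligase genes Suclg1, Suclg2 and Sucla2 gave differences of 0.11, 0.04 and 0.08 (log2), and none passed. Sucla2, the ADP-forming subunit, exceeded the GDP-forming Suclg2 between 4.24- and 4.87-fold per kb. Fh1, fumarase, had 146, 129 and 139.6 CPM in WT against 154, 167 and 146 in Nat10 cKO (log2 change 0.17, SE 0.0907, limma adjusted p = 0.164). Mdh2, the mitochondrial malate dehydrogenase that closes the cycle (ENSMUSG00000019179.10, chr5:135778480-135790398, plus strand), had 149, 138 and 132 CPM in WT against 178, 202 and 179 in Nat10 cKO and rose without overlap (log2 change 0.41, SE 0.0903, limma adjusted p = 0.00367).

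The cytosolic partners were not called. Mdh1, the cytosolic malate dehydrogenase of the malate-aspartate shuttle, had 139.7, 124 and 121 CPM in WT against 144, 165 and 127 in Nat10 cKO (log2 change 0.17, SE 0.106, limma adjusted p = 0.232). Its share of both malate dehydrogenases per kb was 56.6, 55.5 and 56.1% in the WT libraries and 53, 53.1 and 49.5% in the Nat10 cKO libraries, without overlap (exact permutation p = 0.1, adjusted p = 0.257). Which gene held more depends on length, as merged exons are 2567 bases for Mdh1 and 3562 for Mdh2. The longest transcripts are 2122 and 1606 bases. In CPM, without length, Mdh1 lay below Mdh2 in every library. Idh1, the cytosolic NADP-linked isocitrate dehydrogenase, had 50.7, 52 and 54.5 against 61.2, 68 and 52.7 CPM (log2 change 0.20, SE 0.108, limma adjusted p = 0.168), and held 98.7% ± 0.358 of Idh1 and Idh2 reads per kb in WT against 98.3% ± 0.202 in Nat10 cKO.

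Of the genes that refill the cycle or drain malate, 1 of 3 tested rose. Me1, which makes cytosolic NADPH from malate, had 643, 568 and 619.8 CPM in WT against 744, 767 and 647 in Nat10 cKO, without overlap and short of the threshold (log2 change 0.23, SE 0.0899, limma adjusted p = 0.0579). Me2, the mitochondrial NAD-linked malic enzyme, had 139, 126 and 139 CPM in WT against 168, 175 and 149 in Nat10 cKO (log2 change 0.28, SE 0.0928, limma adjusted p = 0.0314), a call lost in 5 of the 6 fits without a library. Pcx, pyruvate carboxylase, which makes oxaloacetate, was low at 3.71, 5.34 and 4.68 against 5.6, 6.68 and 5.92 CPM (log2 change 0.35, SE 0.16, limma adjusted p = 0.106). Pck2 had at most 0.267 CPM.

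In the pentose phosphate pathway, 2 of 4 genes rose. G6pdx, glucose 6-phosphate dehydrogenase, next to Ldhb the most abundant member per kb, had 662, 595 and 644 CPM in WT against 727, 821 and 669 in Nat10 cKO (log2 change 0.22, SE 0.0915, limma adjusted p = 0.0807). Pgd, the next NADPH-forming step, had 21.4, 24.9 and 18.7 CPM in WT against 26.8, 38.9 and 28.3 in Nat10 cKO and rose (log2 change 0.50, SE 0.151, limma adjusted p = 0.0199), led by Nat10 cKO replicate 2. Taldo1, transaldolase of the non-oxidative arm (ENSMUSG00000025503.5, chr7:141392199-141402968, plus strand), had 60.6, 71.4 and 61.6 CPM in WT against 93.1, 98.3 and 87.7 in Nat10 cKO, well apart (log2 change 0.52, SE 0.0983, limma adjusted p = 0.00144). Tkt, transketolase, had 14, 13.7 and 12.2 against 14.4, 11.5 and 16.8 CPM with overlapping groups (log2 change 0.08, SE 0.149, limma adjusted p = 0.723).

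The other genes around these pathways were read from a list of 100, of which 99 had a row and 81 were tested. Here 25 rose and 14 fell, 30.9% and 17.3% of those tested, beside 17.4% and 17.6% of all genes. On the deposited values 10 were called higher and 0 lower, beside 6.58% and 1.39% of all genes. There limma had 1 lower at an unadjusted p under 0.05, with no share of all genes given at that threshold. The edgeR test on reads called 14 lower. Without WT replicate 3, 15 rose, and without Nat10 cKO replicate 1, 16 rose and 8 fell. By the rule of the largest change at 1 CPM or more, 10 genes were named. Me3, the mitochondrial NADP-linked malic enzyme, fell the most, from 13.3, 13.7 and 13.5 CPM in WT to 4.22, 4.05 and 5.7 CPM in Nat10 cKO (log2 change -1.37, SE 0.15, limma adjusted p = 5.49e-05). Of the 3 malic enzyme genes, Me3 thus fell, Me2 rose and Me1 was not called. Of the 13 tested genes listed as shuttles and branches, 3 rose, 4 fell and 6 were not called. Gpd2, the mitochondrial glycerol 3-phosphate dehydrogenase, went from 15, 16 and 14.5 to 8.3, 6.47 and 6.72 CPM (log2 change -0.99, SE 0.139, limma adjusted p = 0.000241). Got1, the cytosolic aspartate aminotransferase, went from 68.7, 59.8 and 64.9 to 38.7, 32.7 and 41.5 CPM (log2 change -0.77, SE 0.111, limma adjusted p = 0.00029). Among pentose phosphate genes, Tktl2, a transketolase-like gene, went from 17.1, 15.1 and 16.1 to 9.29, 6.05 and 7.56 CPM (log2 change -1.0, SE 0.154, limma adjusted p = 0.000417), and Rpia, ribose 5-phosphate isomerase, from 9.86, 13.7 and 9.68 to 5.88, 3.8 and 7.8 CPM (log2 change -0.85, SE 0.208, limma adjusted p = 0.00698). The 5 that fell kept a negative change on the deposited values (from -1.04 for Me3 to -0.41 for Got1), none called there, and were called lower on the per-read scale.

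The other 5 named neighbours rose, and each also passed on the deposited values and the per-read scale. Lias, which makes the lipoyl group of the E2 subunits, had 3.21, 8.12 and 4.85 CPM in WT against 12.7, 15.3 and 12.4 in Nat10 cKO (log2 change 1.24, SE 0.225, limma adjusted p = 0.00116). Vhl, the ubiquitin ligase part that removes hypoxia-inducible factors, had 1.92, 3.33 and 1.62 against 5.48, 7.9 and 6.06 CPM (log2 change 1.21, SE 0.202, limma adjusted p = 0.000685). Acss2, which makes acetyl-CoA from acetate, had 0.896, 1.95 and 0.932 against 3.11, 4.48 and 2.57 CPM (log2 change 0.96, SE 0.208, limma adjusted p = 0.00339). In each of these 3 genes the lowest Nat10 cKO library lay above the highest WT library. Pdha2, the testis-type E1 alpha gene without introns, had 4.2, 2.35 and 3.2 against 6.09, 8.15 and 5.7 CPM (log2 change 0.86, SE 0.189, limma adjusted p = 0.00382). Ldhc had 22.7, 59.1 and 38.3 CPM in WT against 72.2, 85.7 and 57.7 in Nat10 cKO (log2 change 0.91, SE 0.293, limma adjusted p = 0.0394). For Ldhc, unlike the other 4, the groups overlapped and the call was lost without WT replicate 3 and without each of the Nat10 cKO libraries (limma adjusted p up to 0.229). DESeq2 on all 6 libraries did not call Ldhc either (adjusted p = 0.0946), while edgeR did (adjusted p = 0.0239).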

How the data were processed

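Per the submitters' processing notes, reads were processed with Trim Galore 0.6.7, STAR 2.7.10a and featureCounts on mm10, with no settings stated. The authors' deposited table holds read counts per gene in WT replicate 1 and a scaled signal in the other 5 columns, where 1 factor per library (0.908 to 1.38) multiplies whole reads. Dividing it out gave whole reads within 0.001 for 100% of values. Of recovered values below 20, 81.2 to 84.8% were even, so single reads are not independent molecules.

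CPM came from these reads with TMM factors (edgeR 4.0.16). Genes kept by filterByExpr at a minimum count of 10 were tested with limma 3.58.1 (trend, robust) on log2(CPM + 1), which understates the change of low genes, two-sided, with Benjamini-Hochberg adjustment over 18353 genes and a threshold of 0.05. edgeR's quasi-likelihood test and DESeq2 1.42.0 on the reads were alternatives. On simulated data for this comparison with 18353 genes, limma recovered, among changed genes of at least 5 CPM, 70% of 1.5-fold and 96% of 2-fold changes and called 0.0331% of unchanged genes. Only 50 genes were changed at each of 1.5-, 2-, 3- and 4-fold. In the data 17.4% were called higher and 17.6% lower, so these rates need not hold for the real calls. Changes under 1.5-fold were not simulated, while the genes that rose began at 1.18-fold.

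Merged exon lengths, positions and exon overlaps came from GENCODE M21 (GRCm38). Exons of 17 members overlap another gene's, 15 on the opposite strand, and 6 of these 17 rose. Near-identical copies (at least 200 bases and 90% identity over 50% of the copy, BLAST+ 2.17.0) were found for 19 members. Promoters came from RefSeq tables. The members, lists and rule for named genes (genes that rose, the most abundant per kb of each role, 10 neighbours, 2 markers a list) were chosen with earlier results of these data known. R 4.3.3, Python 3.11.15, pandas 2.3.3 and scipy 1.17.1 were used.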

Additional observations from a re-analysis of the deposited data

How the results depend on the processing

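None of the 19 members called higher changed sign under any alternative, while 19 of the 33 others did under at least 1. The alternatives reuse the reads on which the 19 were called, so a kept sign is not independent support. Members called higher numbered 19 and fell to 2 on the deposited values and 2 with the deposited factors on per-read shares, and lay between 11 (without WT replicate 3) and 22 when 1 library was left out (members called lower, 0 to 1). With edgeR, DESeq2, library size alone, median-of-ratios factors, other pseudocounts, no filter, a floor of 1 CPM and copies' reads added, they stayed between 15 and 23. Over all genes, those called higher numbered 1207 on the deposited values and 1024 on per-read shares, and 2112 (without WT replicate 3) to 3375 with 1 library left out, and those called lower numbered 255 on the deposited values. Neighbours called higher numbered 10 on the deposited values, 9 on per-read shares, 16 with no filter and 15 to 24 with 1 library left out, and those called lower 0 on the deposited values and 8 to 15 with 1 library left out. The cause was not tested. A fit with the replicate number as a block called 17 members higher. Same-numbered libraries deviated together with correlations of 0.079, 0.075 and -0.12, so the numbers were not taken to pair them.

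With 1 library left out, the difference in isozyme share (percentage points, Nat10 cKO minus WT) crossed 0 for Hk2 (from -1.22 to 3.16), Slc16a3 (from -0.14 to 0.22), Pdk1 (from -0.62 to 0.58), Pdk2 (from -0.015 to 0.18), Pdk3 (from -0.72 to 0.63), Pdk4 (from -0.0095 to 0.017) and Suclg2 (from -1.02 to 0.0090). The libraries whose absence did so were Nat10 cKO replicate 2 for Hk2 and Pdk4, Nat10 cKO replicate 3 for Slc16a3, Pdk1, Pdk2 and Pdk3, Nat10 cKO replicate 1 for Suclg2, WT replicate 2 for Slc16a3, and WT replicate 3 for Pdk1 and Pdk4. Depth limits the 8 members under 1 CPM.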

Other observations

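Each deposited factor equalled 69 divided by a whole number: in replicate order, 69, 50 and 73 in the WT group, then 75, 76 and 74 in the Nat10 cKO group. No source used here says how these numbers arose. The factor of WT replicate 2, 1.38, was the only one above 1, and the others lay between 0.908 and 1.

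Among the neighbour genes, 1 of the unnamed ones that rose sits beside members described above and was picked after its values were seen. Bsg, the chaperone of the lactate and pyruvate carriers, averaged 98.1 ± 8.50 CPM in WT against 165 ± 11.5 in Nat10 cKO (log2 change 0.75, limma adjusted p = 0.000138), while the carrier Slc16a1 was not called.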
